A study of Bos taurus with 6 samples.

Results

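Gene expression was compared between granulosa cells of dairy cows given folic acid with vitamin B12 and of cows given saline, and the genes described here are those whose ratio favoured the vitamins on every array. For each array the signal of the vitamin channel (spot minus local background, never below 50) was divided by that of the saline channel, and the log2 ratios were centred to a median of 0 over the gene probes. A probe was kept when it had a gene symbol, a mean raw signal of at least 400, and a log2 ratio of at least 0.5 on all 6 arrays. Of 43794 gene probes, 7325 had a symbol and enough signal, and 17 of these (0.232%) met the ratio threshold. A list of 17 genes, set aside by the rule for separate description, held 7 of those 17 probes, from 6 genes. The remaining 10 probes stand for 10 genes: ITPKA, ACSM1, GPT, NOL3, TMEM37, RGN, TMEM176B, RHOBTB1, FXYD3 and TPM2.

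Treated cows had received folic acid (320 mg) and vitamin B12 (10 mg) by intramuscular injection starting 3 weeks ahead of calving and ending on day 57 ± 2 postpartum, and control cows 0.9% physiological saline over the same time. Preovulatory follicles of 12 mm or more were aspirated 66 ± 2 h after a second injection of prostaglandin F2 alpha, on day 57, with a second attempt on day 71 in cows that lacked one. Every array carried vitamin RNA in one dye and saline RNA in the other, and the design counts 3 biological replicates, each hybridised on 2 arrays with the dyes swapped. Whether 1 cow or several stand behind a replicate is not stated, nor are the cows' ages, so the spread between replicates may be partly technical. The RNA had been amplified over several rounds before labelling. Arrays 1 and 2 (replicate 1) lay on one slide, and arrays 3 to 6 (replicates 2 and 3) on another, so replicate 1 and its slide cannot be told apart.

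Granulosa cells line the ovarian follicle, convert androgen to estradiol and feed the oocyte through junctions. They are coupled to the blood only across the basal lamina, and their response to gonadotropins runs through cyclic AMP and, after the LH surge, also through inositol phosphates and calcium. Folate carries single carbon units for the making of nucleotides, and vitamin B12 is the cofactor that returns one of them to methionine and so to methylation. None of the 10 genes is a known enzyme or carrier of folate or of vitamin B12. They include enzymes of small-molecule metabolism (ACSM1, GPT, RGN), a kinase of inositol phosphate signalling (ITPKA), an inhibitor of apoptosis (NOL3), 3 proteins of membranes (TMEM37, TMEM176B, FXYD3), a protein of actin filaments (TPM2) and a partner of a ubiquitin ligase (RHOBTB1).

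The labelled cell type was checked on granulosa genes. Of 12 such genes, 9 were above the negative controls in all 6 vitamin and all 6 saline readings, where a reading is one dye on one array, among them FSHR, AMH, CYP19A1 and INHA. The other three were FOXL2, a transcription factor of granulosa identity, above the controls in 4 vitamin and 0 saline readings, HSD17B1 in 5 and 4, and AMHR2 in 4 and 4. The granulosa genes summed to between 391 and 1600 times the median gene probe in vitamin readings and to between 153 and 1310 in saline readings. Markers of leukocytes summed to between 33.6 and 73.4 in vitamin readings and to between 24.9 and 678 in saline readings. For epithelium the sums were 19.1 to 411 and 12.4 to 468, and for theca and stroma 69.8 to 151 and 88.5 to 237. Those of endothelium, and of erythrocytes and platelets, were 28.5 or less. In bulk samples fewer cells of a type and less RNA per cell cannot be told apart.

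The members were chosen by these ratios, so the values of vitamins against saline are a description and no test is given for them. The mean log2 ratio over the 6 arrays ran from 0.84 for TPM2 to 2.83 for ACSM1, with a median over the 10 genes of 1.18, against a median of -0.15 over the 7325 named probes. For 9 of the 10 the mean was at least 1, a doubling. In the fit across all tested probes, which gives the background, limma called 0 of 26792 probes for vitamins over saline (0.0%), and 1246 had an unadjusted p under 0.05. The opposite pattern, a ratio of -0.5 or less on all 6 arrays, was met by 52 of the 7325 named probes (0.71%), from 48 genes.

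**Figure D1:**
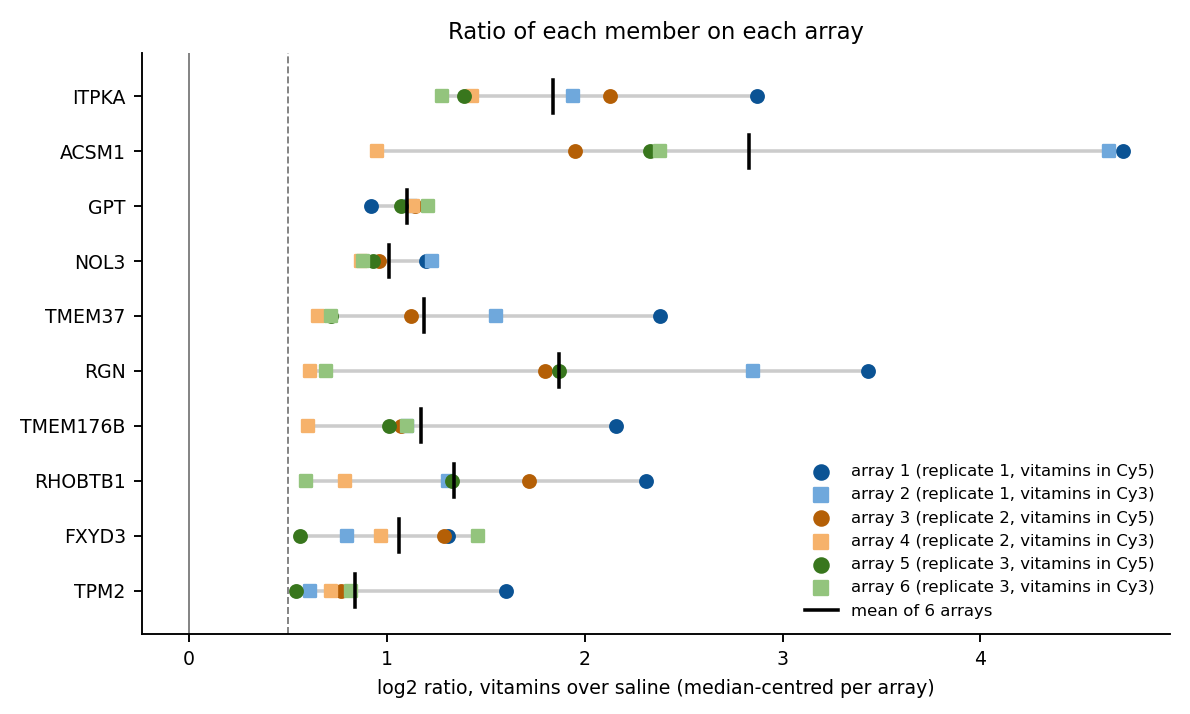
Log2 ratio of vitamins over saline (horizontal axis) for the 10 genes on each of the 6 arrays, with circles for vitamins in Cy5, squares for vitamins in Cy3 and a black bar at the mean. All points lie right of the dashed line at 0.5, which the rule required; GPT spans 0.92 to 1.21, while ACSM1 spans 0.95 to 4.72.

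ITPKA makes inositol tetrakisphosphate from the calcium-releasing inositol trisphosphate. Its weakest array, array 6, had a ratio of 1.28, and with loess its lowest was 0.72, below those of ACSM1 (1.69) and RGN (0.80). Its level, given here as the signal divided by the median signal of the gene probes in the same reading, was 15 at the lowest, 21.4 at the median and 123 at the highest in vitamin readings, against 5.33, 6.39 and 24.5 in saline readings. The groups overlapped, because both dyes of replicate 1 were high: that replicate had 123 and 91.5 in its vitamin readings and 17.3 and 24.5 in its saline readings. Apart from these, the saline readings of ITPKA lay below every vitamin reading. The replicate log2 ratios were 2.41, 1.78 and 1.33, with a mean of 1.84 ± 0.54 (SD, n = 3), which is 3.58-fold.

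ACSM1 is a mitochondrial synthetase that links medium-chain fatty acids to coenzyme A. Its level was 6.81 at the lowest, 15.3 at the median and 24.9 at the highest in vitamin readings, and 0.648, 1.32 and 8.25 in saline readings. One saline reading, that of array 4, reached above the lowest vitamin reading. The replicate log2 ratios were 4.68, 1.45 and 2.36 (2.83 ± 1.67, SD, n = 3). The spread lay more in the saline cells: averaged over both arrays of a replicate, their level was 0.792, 6.58 and 1.32, where that of the vitamin cells was 19.8, 17.3 and 7.06. In 1 of the 6 saline readings ACSM1 was not above the negative controls, which limits the precision of its largest ratios.

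GPT, the cytosolic alanine aminotransferase, moves an amino group between alanine and alpha-ketoglutarate. Its ratio lay between 0.92 and 1.21 on single arrays, and between 0.57 and 1.69 with loess. The level was 1.55 at the lowest, 5.2 at the median and 8.2 at the highest in vitamin readings, and 0.841, 2.26 and 3.78 in saline readings. These ranges overlapped because both groups were low in replicate 1, at 1.66 with vitamins and 0.842 with saline, against 7.6 with vitamins and 3.6 with saline in replicate 2, while the ratio differed little between replicates. The replicate log2 ratios were 1.02, 1.14 and 1.14 (1.10 ± 0.07, SD, n = 3), a 2.14-fold difference. The SD was 0.25 with loess and 0.35 in the authors' deposited log2 ratios, where the lowest array was at 0.22. GPT was above the negative controls in 6 vitamin readings and in 4 of 6 saline readings.

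RGN, or regucalcin, binds calcium and is the gluconolactonase of vitamin C synthesis in many mammals. Its level was 8.19 at the lowest, 20.5 at the median and 33.6 at the highest in vitamin readings, and 0.973, 8.69 and 16.1 in saline readings, so the groups overlapped. As with ACSM1, the saline cells of replicate 1 stood lowest, at 1.06 against 12.6 and 9.15 in replicates 2 and 3, while the vitamin cells were at 9.14, 27.7 and 23.3. The replicate log2 ratios were 3.14, 1.20 and 1.28 (1.87 ± 1.10, SD, n = 3). On the second slide RGN stood at 1.80 and 1.87 where Cy5 marked the vitamin RNA, and at 0.61 and 0.69 where Cy3 did. With loess these were 1.66 and 1.15 in Cy5, and 1.45 and 0.80 in Cy3.

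NOL3, an apoptosis repressor with a caspase recruitment domain, had levels of 2.6, 3.69 and 5.06 (lowest, median and highest) in vitamin readings and of 1.14, 1.88 and 2.97 in saline readings. A single saline reading, on array 4, exceeded the lowest vitamin reading. The ratio was 1.22, 0.91 and 0.90 in the replicates (1.01 ± 0.18, SD, n = 3), and all 12 readings were above the negative controls. The SD was 0.39 with loess. In the authors' deposited log2 ratios it was 0.57, and the lowest array was at 0.44.

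Of the membrane proteins, FXYD3 is a small regulator of the sodium pump. It was the only one of the 10 genes whose readings did not overlap: 2.84, 3.4 and 4.58 in vitamin readings, against 1.06, 1.84 and 2.08 in saline readings (lowest, median and highest). Among the 7325 named probes 0.0956% had vitamin readings all above the saline readings. The replicate log2 ratios were 1.06, 1.13 and 1.01 (1.06 ± 0.06, SD, n = 3), but the arrays within replicate 3 differed, with 0.56 on array 5 and 1.46 on array 6. The small SD depended on the scaling: it was 0.36 with loess and 0.65 in the authors' deposited log2 ratios.

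TMEM37 is a relative of the gamma subunits of voltage-gated calcium channels. Its levels were 2.4, 8.06 and 13.8 in vitamin readings and 1.35, 3.3 and 5.36 in saline readings (lowest, median and highest), with overlap. Replicate 2 was low in both groups, at 2.63 with vitamins and 1.49 with saline. The ratios of 1.96, 0.88 and 0.72 (1.19 ± 0.68, SD, n = 3) were highest in replicate 1.

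TMEM176B is a multi-pass membrane protein known from dendritic cells in mice and humans. It had levels of 2.63, 3.97 and 12.1 in vitamin readings and of 1.35, 1.99 and 5.16 in saline readings. The groups overlapped, and replicate 1 was the highest in both. Replicate ratios were 1.63, 0.84 and 1.05 (1.17 ± 0.41, SD, n = 3).

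RHOBTB1, which binds the cullin-3 ubiquitin ligase, had levels of 1.51, 3.78 and 6.08 in vitamin readings and of 0.671, 1.41 and 2.34 in saline readings. Replicate 3 was the lowest in both groups (1.66 with vitamins, 0.813 with saline), which made the ranges overlap. Its replicate ratios were 1.81, 1.26 and 0.96 (1.34 ± 0.43, SD, n = 3). With vitamins in Cy5 the mean ratio was 1.79, and with vitamins in Cy3 it was 0.90 (1.80 and 1.22 with loess).

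The member probe of TPM2, the beta-tropomyosin that winds along actin filaments, was the dimmest of the 10, with a mean raw signal of 457, and the closest to the threshold. Its levels were 1.45, 2.49 and 5.02 in vitamin readings and 0.805, 1.55 and 2.96 in saline readings, with overlap. The replicate ratios were 1.11, 0.75 and 0.68 (0.84 ± 0.23, SD, n = 3).

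**Figure D2:**
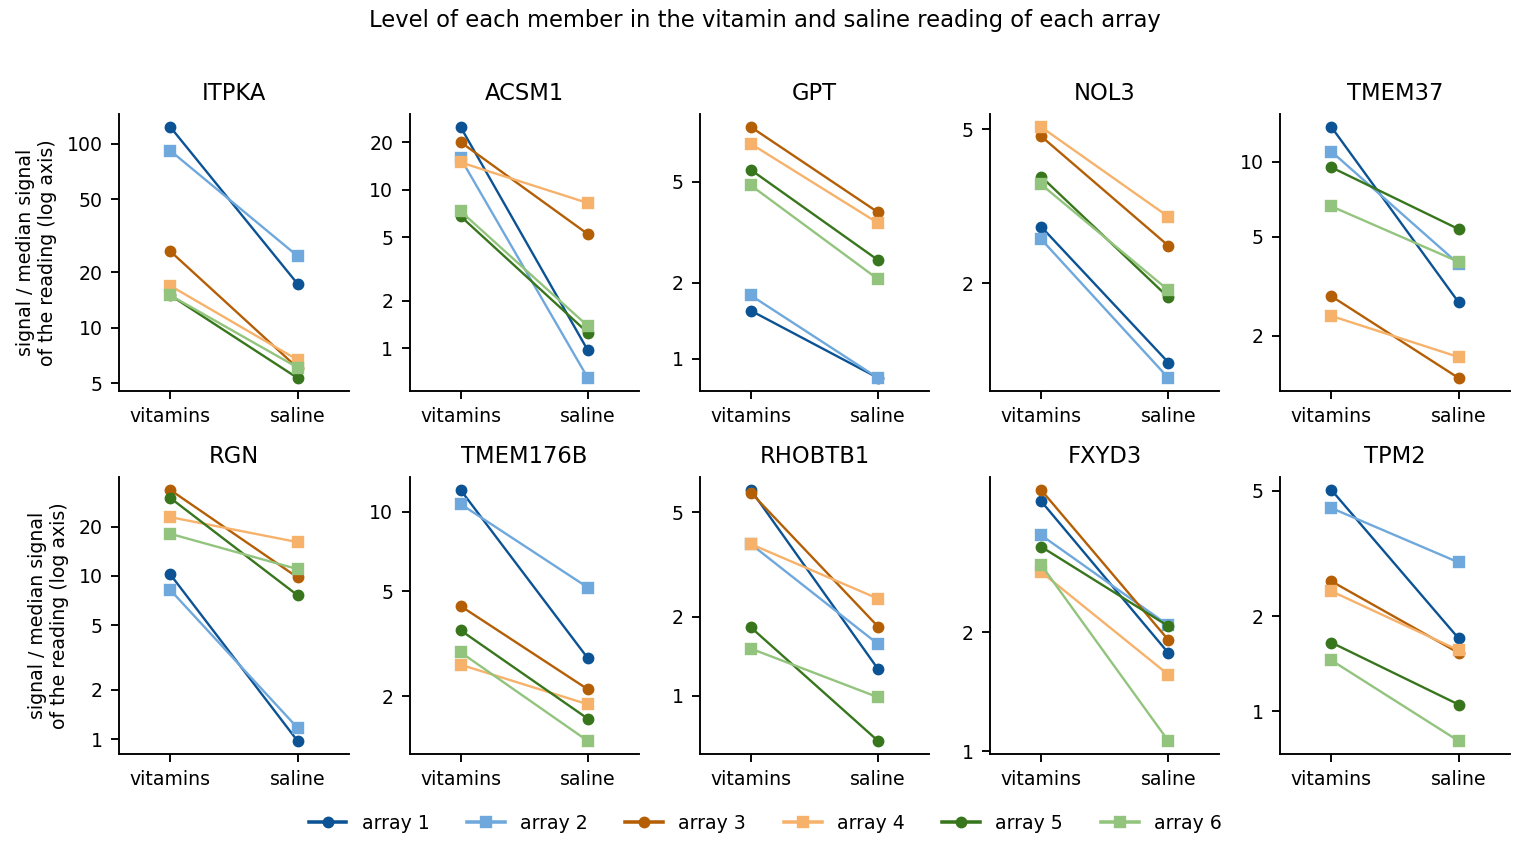
Level of each gene in the vitamin reading (left) and the saline reading (right) of each array, as signal over the median signal of the reading on a log axis, with a line joining the readings of an array. Every line falls towards saline, and the height of the lines differs between replicates: RGN in saline cells was at 1.06 in replicate 1 and at 12.6 and 9.15 in the others, and ITPKA in vitamin cells at 106 against 20.9 and 15.

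In 8 of the 10 genes the replicate ratio was highest in replicate 1, and GPT and FXYD3 were the exceptions. Among the 7325 named probes, whose median in replicate 1 was -0.58, the share was 16.0%. The 10 genes were chosen by these same ratios and the named probes were not, so that share is no baseline for the members. The median over the 10 genes was 1.72 in replicate 1, 1.13 in replicate 2 and 1.03 in replicate 3. Within the slide of replicate 1 it was thus 1.72, and within the slide of the others 1.09. The ratios of all named probes were also more widely spread in replicate 1, with an SD over probes of 1.09, against 0.84 and 0.53 in replicates 2 and 3. The ratios of the leukocyte markers were lowest in that replicate. The 24 measured of 30 had a median log2 ratio of -2.55 in replicate 1, 0.96 in replicate 2 and 0.04 in replicate 3. Their summed levels overlapped between the groups, though the highest sum was 678 in saline readings and 73.4 in vitamin readings. ITGAM was never above the negative controls, and the part of the leukocyte markers in the result was not tested.

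The threshold was not equally strict on each array, because bright probes were shifted. The median ratio of the 7325 named probes was 0.70 on array 5, where 64.4% of them reached 0.5, but -0.91 on array 2 and -0.63 on array 4, where 8.27% and 10.6% did. Set against that median, the median of the 10 genes stood 2.51, 2.18, 1.07, 1.46, 0.34 and 1.03 higher on arrays 1 to 6. Single genes were above it on all 6 arrays in 8 of 10 cases. On array 5 FXYD3 (0.56) and TPM2 (0.54) were below it. When the ratios were normalized by loess, which removes the dependence on intensity within an array, the members' medians were 2.36, 1.96, 1.04, 1.30, 0.61 and 0.92. All 10 genes were above 0 on all 6 arrays with loess, and 8 were at or above 0.5 on all of them. TMEM37 was at 0.07 and FXYD3 at 0.16 on array 5 under loess, and array 5 gave the lowest loess ratio for 7 of the 10 genes.

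**Figure D3:**
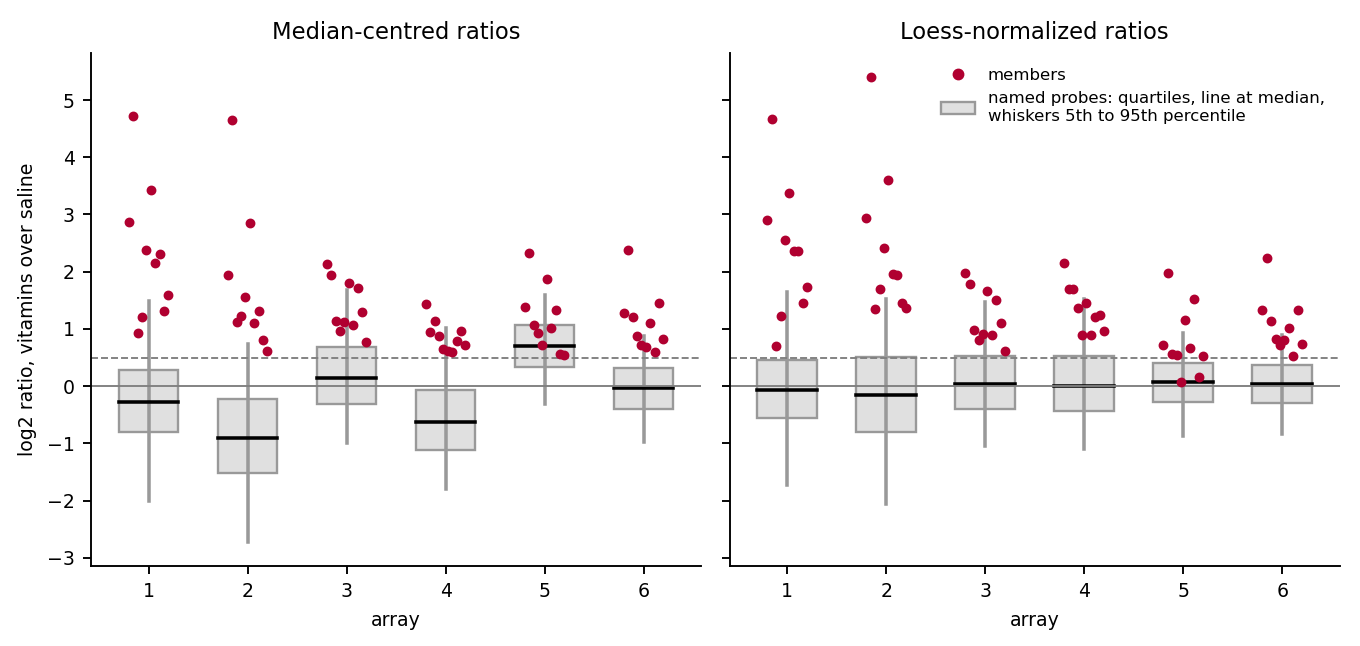
Log2 ratios on each array for the 10 genes (red points) and for the 7325 named probes with enough signal (grey boxes at the quartiles, black line at the median, whiskers at the 5th and 95th percentiles), median-centred on the left and loess-normalized on the right. The box of array 5 sits at a median of 0.70 before loess and of 0.07 after it, and 2 of the members come close to 0 on that array after loess.

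The dye orientation was tested over all probes. The rule required a ratio of at least 0.5 in both orientations, so a probe that was low in either could not be a member. Calls among the 10 genes were thus shaped by the rule and cannot be compared with the share of all probes. The mean loess ratio of the 3 arrays with vitamins in Cy5 was set against that of the 3 arrays with vitamins in Cy3 by limma over 26684 probes. It called 0 of the 10 genes and 0.0% of all probes, with adjusted p-values of the 10 genes between 0.793 and 1.0. Across all probes 1657 had an unadjusted p under 0.05. That fit ignored the pairing of arrays, so differences between replicates counted as noise and its lack of calls says little about the dyes. With the replicate as a block, which keeps the pairing, limma called 1 of the 10 genes, GPT (adjusted p = 0.0489), and 6.76% of all probes. GPT had loess ratios of 0.75 with vitamins in Cy5 and 1.39 with vitamins in Cy3, a difference of -0.64. Before loess its values were 1.04 and 1.15. For the other 9 genes the adjusted p with the block ran from 0.0967 (RHOBTB1, difference 0.57) to 0.975.

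For 7 of the 10 genes the array held a single probe with that symbol, so the ratio has no second probe to set it against. TMEM37, TMEM176B and TPM2 had 5 other probes between them, and none of the 5 was above 0 on all 6 arrays. TPM2 had 2 probes far brighter than the member probe. The one with a mean raw signal of 5525 had replicate ratios of 1.20, -0.38 and 1.79 (0.87 ± 1.12, SD, n = 3), and the one at 2991 had 2.77, -0.02 and 2.03 (1.60 ± 1.44, SD, n = 3). In replicate 2 the member probe was at 0.75. On array 3 the member probe was at 0.77 and the probe at 2991 at 0.78. The probe at 5525 was at -0.11 there, where the median of the named probes was 0.14. On array 4 the probe at 2991 was at -0.81 and that at 5525 at -0.64, where the median of the named probes was itself -0.63. The lowest loess ratio was -0.22 for the probe at 5525 and -0.14 for that at 2991. The third other probe of TPM2, with a signal of 177, was at 0.19 ± 0.21 (SD, n = 3) and above the negative controls in 1 vitamin and 2 saline readings.

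The other probe of TMEM37 had a mean raw signal of 366 and replicate ratios of 1.17, 0.42 and -0.01 (0.53 ± 0.60, SD, n = 3). That of TMEM176B was dim, with a signal of 216, above the negative controls in 4 of 6 vitamin and 2 of 6 saline readings, with a mean ratio of 0.38 ± 0.60 (SD, n = 3). The other probe of TMEM37 ordered the replicates as its member probe did. That of TMEM176B, with replicate ratios of 1.07, 0.10 and -0.04, did not, and neither did the other probes of TPM2. Which transcripts each probe reads was not analysed here.

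**Figure D4:**
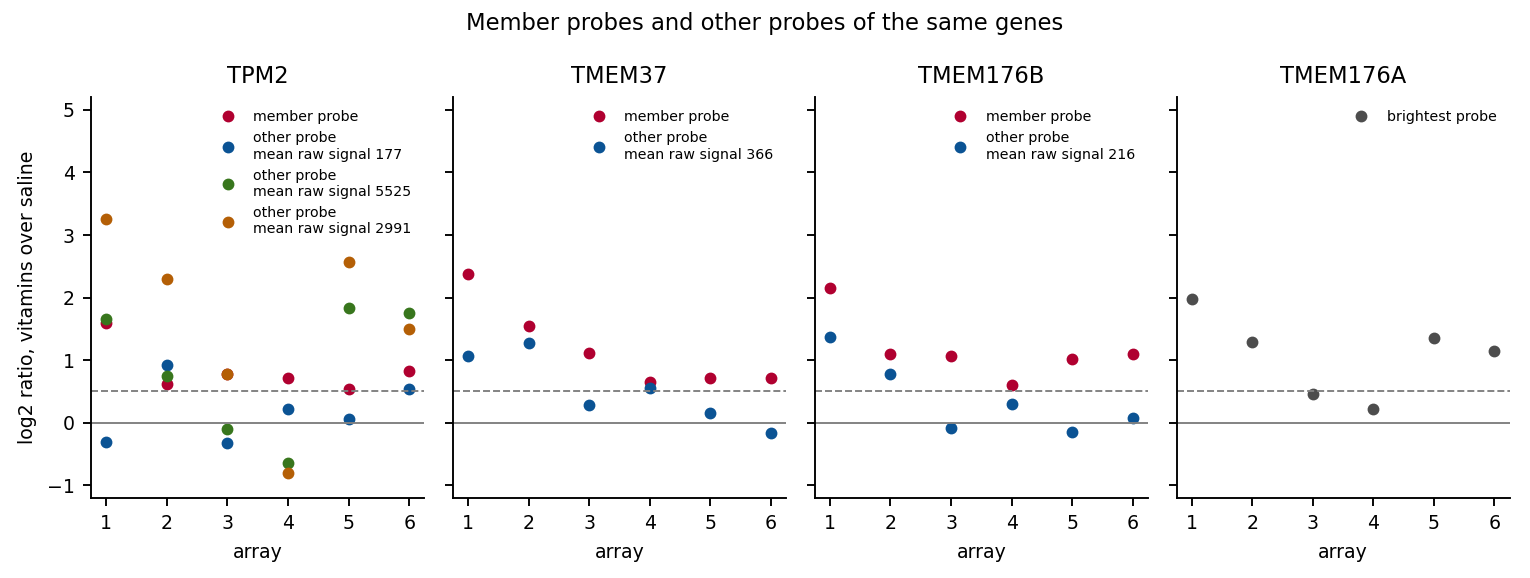
Log2 ratio of vitamins over saline on arrays 1 to 6 for the member probe (red) and the other probes of TPM2, TMEM37 and TMEM176B, and for TMEM176A, the neighbour of TMEM176B. The brighter probes of TPM2 (mean raw signals of 5525 and 2991) fall below 0 on array 4, where the member probe was at 0.72. The probe at 5525 is also below 0 on array 3, at -0.11, and TMEM176A stays above 0 on all arrays.

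Relatives of the 10 genes were described from lists drawn up by family and pathway once the members were known, without regard to their ratios. Of 82 measured relatives, 2 were above 0 on all 6 arrays and 0 were below 0 on all, against 1.89% and 2.27% of 10945 tested genes. One of the 2 was TMEM176A, which lies next to TMEM176B in the RefSeq annotation and encodes a similar membrane protein. It had replicate ratios of 1.63, 0.34 and 1.26 (1.07 ± 0.67, SD, n = 3), with a loess mean of 1.23. The other was CACNB3, a beta subunit of calcium channels, at 0.50 ± 0.25 (SD, n = 3), but with loess its lowest array was at -0.09.

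Of the closer paralogs, GPT2, the mitochondrial alanine aminotransferase, was at 0.07 ± 0.29 (SD, n = 3), where GPT was at 1.10. ITPKC, another inositol trisphosphate kinase, was at 0.22 ± 0.25, and ACSM2B, the annotated neighbour of ACSM1, at 0.10 ± 0.22 (SD, n = 3 each). RHOBTB3 was at 0.12 ± 0.43, TPM3 at 0.06 ± 0.21 and TPM4 at -0.43 ± 0.25 (SD, n = 3 each). TPM1 had replicate ratios of -0.97, 1.32 and -0.11. These differences from the members were not tested. Among other sodium pump genes and FXYD proteins 1 of 12 was measured, ATP1B3, at -0.31 ± 0.08 (SD, n = 3).

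According to the RefSeq annotation of the ARS-UCD2.0 assembly, the 10 genes lie on 9 chromosomes. Of their nearest protein-coding neighbours, 14 were measured. On all 6 arrays 1 was above 0 and 1 below 0, against 1.89% and 2.27% of all tested genes. TMEM176A was the neighbour above 0 on all 6 arrays. CDK1, the kinase of entry into mitosis and the neighbour of RHOBTB1, was below 0 on all 6 arrays, between -1.68 and -0.56. Its mean was -1.22 ± 0.47 (SD, n = 3), where RHOBTB1 was at 1.34. Such values were common among cell cycle genes, of which 26 of 40 were below 0 on all 6 arrays, with a median of -1.27.

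Lists of genes of the follicle and of other cell types were set beside the members, with 1 probe per gene. They held none of the 10 genes, but they did hold genes set aside by the rule, such as CYP19A1, INHA and AMH. Those genes could not be members, so the absence was partly fixed by the rule. They do count in the numbers given next. At or above 0.5 on all 6 arrays were 1 of 11 granulosa identity genes and 2 of 24 of the LH surge response. So were 1 of 25 genes of the estrogen-active follicle, 1 of 21 of steroid synthesis, 1 of 23 of cholesterol and lipoproteins and 1 of 18 of luteinisation. Among all tested genes, 15 of 10945 were. Of 40 measured cell cycle genes, 26 were below 0 on all 6 arrays (65.0%, against 2.27% of all tested genes) and 0 were above, with a median of -1.27. At -0.5 or less on all 6 arrays were 12 of the 40, against 50 of 10945 tested genes. The replicate medians of the cell cycle genes were -1.93, -0.69 and -1.05, lowest in replicate 1. In that replicate 8 of the 10 members had their highest ratio. The part of cell division in the members' ratios was not tested. Above 0 on all 6 arrays were 3 of 11 granulosa identity genes (median 0.35), 2 of 25 genes of the estrogen-active follicle (0.38), 4 of 28 of the extracellular matrix (0.21) and 3 of 24 of the LH surge response (0.00), against 1.89% of all tested genes.

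In the lists for steroid synthesis (median 0.05 over 21 genes), cholesterol and lipoproteins (0.12 over 23), luteinisation (0.25 over 18) and antioxidants (-0.13 over 33), 1 gene each was above 0 on all arrays. The TGF-beta family had 2 of 31 (median 0.07), and the insulin-like growth factors (0.14 over 13), the protease inhibitors (0.09 over 24) and the secretory pathway (-0.12 over 39) had 0. For folate, methionine and vitamin B12 handling, 1 of 34 was above 0 on all arrays and 1 below, with a median of 0.02. Markers of other cells had medians of -0.62 for leukocytes, -0.06 for theca and stroma (0.02 with loess), -0.07 for endothelium, 0.14 for epithelium and -0.16 for erythrocytes and platelets. The theca and stroma list had 1 gene above 0 on all arrays and the other 4 had 0. Below 0 on all 6 arrays were 2 of 6 genes of erythrocytes and platelets, 2 of 39 of the secretory pathway and 1 of 23 of cholesterol and lipoproteins. Apart from cell cycle and folate, the remaining lists had 0.

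Just inside the threshold were TPM2 (0.54 in its weakest array), FXYD3 (0.56), RHOBTB1 (0.59) and TMEM176B (0.60). Just outside it were MOV10, an RNA helicase (0.46), PPM1K, a mitochondrial phosphatase of branched-chain amino acid breakdown (0.46), LTF, which is lactoferrin (0.43), and TEAD2, a transcription factor of the Hippo pathway (0.43). PPM1K had a mean ratio of 1.54 ± 0.57 and LTF of 1.26 ± 0.75 (SD, n = 3 each), so both lay above most members in their means. Their weakest arrays were array 4 for PPM1K and array 2 for LTF. With loess the lowest array of PPM1K stood at 1.14 and that of LTF at 0.76. MOV10 was at -0.01 in its weakest array under loess.

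**Figure D5:**
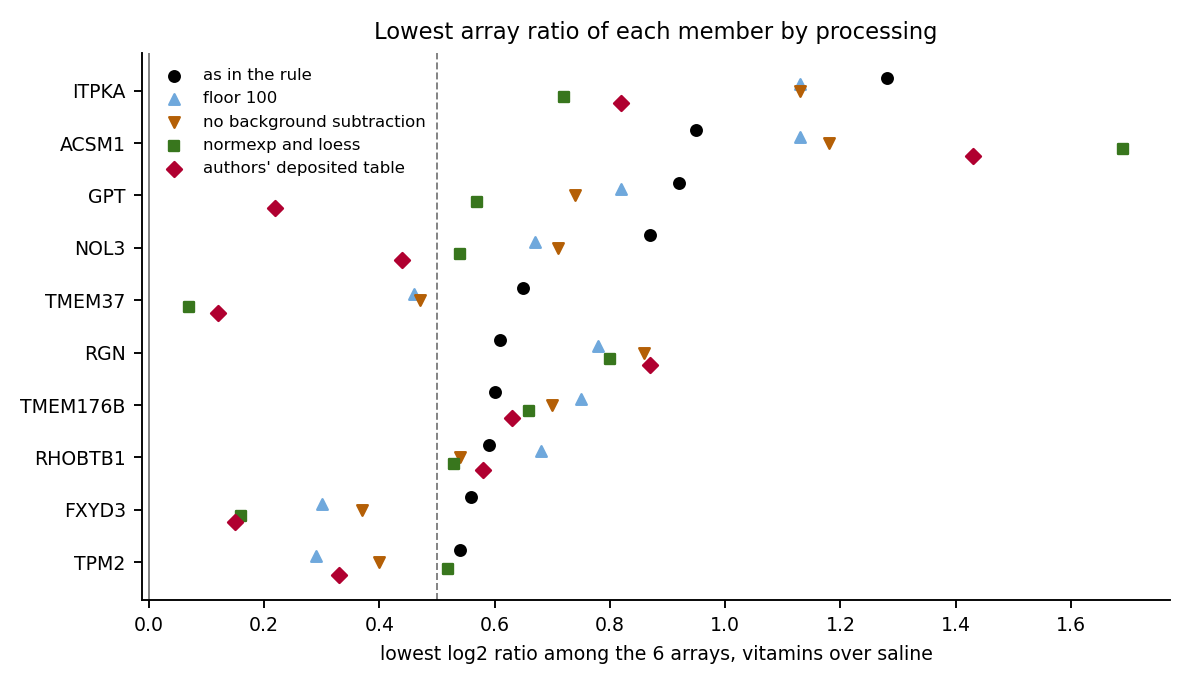
Lowest log2 ratio among the 6 arrays for each of the 10 genes, computed as in the rule (black circles) and under 4 other treatments of the signal, with a dashed line at 0.5. ITPKA, ACSM1, RGN, TMEM176B and RHOBTB1 stay right of the line under all of them, while FXYD3 and TMEM37 drop to between 0.07 and 0.47.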

How the data were processed

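RNA was extracted, amplified and labelled by ULS chemistry, per the labels' protocols. The deposited scanner files give median spot and background intensity in Cy3 and Cy5, per the file headers. The authors' deposited log2 ratios, of unstated making, correlated with the loess ratios at r = 0.858 to 0.962 (vitamins over saline, column medians from -0.018 to 0.015) and served as an alternative. Scanner and software: not given in the sources used here.

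Limma 3.58.1 in R 4.3.3 fitted normexp (offset 50), loess values of probes above the mean plus 2 SD of 153 negative controls in 6 of 12 readings. Adjustment was Benjamini-Hochberg at 0.05. Arrays 1 and 2, 3 and 4, and 5 and 6 were taken as dye-swap pairs: their deviations correlated at 0.874, 0.863 and 0.723, other pairings at -0.024 or lower. On simulated data with the variance of 26680 probes, a small part of the probes was given a log2 difference. The vitamin fit called 0% of these at a difference of 1 or 2, 62.5% at 3 and 80.5% at 4. At 3 and 4 it also called 3 and 7 unchanged probes. With another number of changed probes these shares could differ. Members and lists were chosen with earlier results of these data known, and all members are named. Symbols come from the platform annotation (21790 probes with 1, 22004 with none, 1524 updated through RefSeq). No sequences were used. The number of arrays limits the precision.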

Additional observations from a re-analysis of the deposited data

Results flagged for a closer look

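In 30 sets of 6 values (ratios, vitamin readings and saline readings of the 10 genes), 2 held a value far from the others by Dixon's ratio, whose critical value is 0.625. Chance flags about 1 in 20 such sets, and both arrays of a replicate share their RNA. TMEM176B had a log2 ratio of 2.16 on array 1, where the other arrays lay between 0.60 and 1.10 (Dixon's ratio 0.681). TPM2 had 1.60 on array 1, against 0.54 to 0.82 on the others (0.735). The rule kept every ratio at 0.5 or more, which limited outliers on the low side. With loess array 1 stood nearer to its dye-swap partner, array 2. TMEM176B was then at 2.36 and 1.96 on arrays 1 and 2, and TPM2 at 1.74 and 1.36.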

How the results depend on the processing

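The rule gave 10 probes, and between 7 and 14 with a floor of 20 or 100, a ratio threshold of 0.4 or 0.6, or a raw signal minimum of 200. With the floor of 100 the 11 probes held 7 of the 10, without TMEM37, FXYD3 and TPM2. It gave 5 with a minimum of 800, 16 without background subtraction (7 of the 10 among them), 42 with normexp and loess (8 of the 10) and 44 in the authors' deposited table (5 of the 10). Leaving out a single array or a replicate gave between 10 and 144 probes, since fewer arrays then had to pass: 27 without array 4, 17 without array 6, and 144, 73 and 36 without replicates 1, 2 and 3. The cause of the other shifts was not tested.

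The members' median of 1.18 ranged from 1.09 to 1.34 without a replicate and was 1.72 within the slide of replicate 1. Of 100 recomputed means of single genes, 87 moved by less than the SD between replicates, 13 by more, and 0 were below 0. Without a replicate or within a slide, the rule excluded a mean below 0, because it required a positive ratio on every array. Only the means under other treatments of the signal could have fallen below 0. Limma called 0 probes for vitamins over saline, and 278 with no replicate block, which counts paired arrays as separate samples. For dye orientation it called 0 without regard to the pairing, and 1805 with the replicate block, which keeps it. The other settings of both fits called 0 (lowest and highest without a replicate 0). Probes near the negative controls limit GPT, ACSM1, RHOBTB1 and TPM2, which were not detected in every saline reading.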

Other observations

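Among 4476 probes with enough signal but no gene symbol, 7 had a ratio of at least 0.5 on all 6 arrays. Below the raw signal minimum, 1 of 14465 named probes did so.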
